A study of Mus musculus with 7 samples.

Results

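Interferon-stimulated genes are the genes that cells switch on after interferon binds its receptors. A fixed list of 40 of them, given by symbol, was followed through single-cell libraries of 7 mouse mammary tumors, in which 33710 genes were listed in all. The 40 genes were grouped by role into 4 transcription factors, 4 sensors of viral RNA or DNA, 4 IFIT genes, 5 OAS genes, 6 Mx and other antiviral effectors, 3 genes of the ISG15 system, 7 guanylate-binding and immunity-related GTPases and 7 further genes. All 40 were listed in each of the 7 matrices, and together they had 48161 unique molecular identifiers (UMIs, each counting 1 captured mRNA molecule) in cells, from 74 for Oas3 to 6236 for Ifi27.

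The tumors arose in MMTV-PyMT;HK2f/f mice, in which a mammary promoter drives the polyoma middle T oncogene and both copies of the hexokinase 2 gene are floxed. The labels give the genotype of these controls as wild type and the sampling time as 3 months after a palpable tumor, and the methods describe tamoxifen for the control mice too, whereas tumors with HK2 deletion were not analysed here. Sampling near a tumor-size endpoint is described in the methods, and which applied to these tumors is not clear. Each tumor came from another mouse and gave 1 Drop-seq library. The tumors are called here by the numbers of their labels, 1 to 5, 7 and 8, and the titles form 2 series, CB (tumors 1 to 4) and WT (tumors 5, 7 and 8).

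Of 37000 barcodes, 15047 had 200 to 6000 genes and were taken as cells, 1133 to 4780 per tumor with 962677 to 4471473 UMIs, and 5 barcodes occurred in more than 1 library. Clusters were called after fixed markers, so that each class name below means a class that resembles the named cell type: 6077 tumor cells (PyMT, Csn3, Wfdc18, Lalba), 1713 hormone-sensing epithelial cells, 285 myoepithelial cells, 1024 fibroblasts, 145 endothelial cells, 1900 C1q macrophages, 727 other myeloid cells and 2218 T/NK cells. The interferon-stimulated genes took no part in the clustering. The summed level of the 10 alveolar-type tumor markers was 31699 to 69778 CPM (UMIs per 1000000 UMIs of the sum) in tumor cells, and it still had a median of 5609 CPM in T/NK cells. In myoepithelial cells the tumor markers (10379 to 43091 CPM) summed to more than the class's own 10 markers (3150 to 12531 CPM) in each of 5 tumors except tumor 5, and their part in the myoepithelial values was not tested. In hormone-sensing cells the tumor markers summed to 2572 CPM (tumor 2) to 13678 CPM (tumor 7). That was more than the class's own 8 markers (3119 to 5183 CPM) in every tumor except tumors 2 and 5. Their part in the hormone-sensing values was not tested either. Endothelial cells had all 10 of their markers in each of 3 tumors (7414 to 8255 CPM) and carried markers of pericytes at 854 to 3243 CPM. Erythroid markers stood at 11869 CPM in the endothelial sum of tumor 8, above its own markers, and at 260 and 0 CPM in tumors 4 and 5. In fibroblasts of tumor 8 they stood at 9231 CPM. Their part in these values was not tested. At least 10 myoepithelial cells were found in 5 tumors and at least 10 endothelial cells in 3. T/NK cells of tumors 3 and 8 were few, 39 and 26.

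Type I interferons such as interferon beta signal through a receptor of IFNAR1 and IFNAR2 to a transcription factor complex that includes STAT2 and IRF9 and binds the interferon-stimulated response element (ISRE). Interferon gamma, made by T and NK cells, signals through IFNGR1 and IFNGR2 to factors that bind the gamma-activated site (GAS). The products block viral RNA, tag proteins with ISG15 or attack the vacuoles of intracellular pathogens, and in tumors the same genes are known as a readout of interferon made within the tissue.

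The promoter letters that these factors read are shown for 6 members whose levels the results below turn on. RefSeq windows of 300 bases (250 before the start and 50 after it, GRCm38.p6) were found for 30 of the 40 members. The 10 without one were Dhx58, Zbp1, Oas2, Mx1, Mx2, Usp18, Iigp1, Ifi27, Rtp4 and Parp14. The ISRE letters GAAANNGAAA, on either strand (TTTCNNTTTC on the other) and with overlapping matches counted, lay in 17 of the 30 (56.7%), beside 3.99% of 27018 genes with a window. The GAS letters TTCNNNGAA, which read the same on both strands, lay in 8 of the 30 (26.7%), beside 9.55% of all genes. Below are the 250 bases before the start, from 5′ to 3′ along the gene, with matches in capitals. Isg15 at chr4:156200819-156201068 (minus strand), Ifit1 at chr19:34640639-34640888 (plus strand), Rsad2 at chr12:26456453-26456702 (minus strand) and Irgm1 at chr11:48871421-48871670 (minus strand) held ISRE letters, Gbp7 at chr3:142530086-142530335 (plus strand) held both, and Irf1 at chr11:53769764-53770013 (plus strand), the first of its 2 windows, held GAS letters only.
Isg15: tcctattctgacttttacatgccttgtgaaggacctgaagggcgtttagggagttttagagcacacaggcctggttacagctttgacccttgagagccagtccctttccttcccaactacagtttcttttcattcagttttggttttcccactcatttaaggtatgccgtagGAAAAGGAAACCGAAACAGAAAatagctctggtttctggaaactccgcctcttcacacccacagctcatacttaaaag
Ifit1: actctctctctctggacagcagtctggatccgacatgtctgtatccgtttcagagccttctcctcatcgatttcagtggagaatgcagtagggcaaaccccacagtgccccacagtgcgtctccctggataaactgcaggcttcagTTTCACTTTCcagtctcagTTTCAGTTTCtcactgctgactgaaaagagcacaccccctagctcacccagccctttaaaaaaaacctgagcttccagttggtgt
Rsad2: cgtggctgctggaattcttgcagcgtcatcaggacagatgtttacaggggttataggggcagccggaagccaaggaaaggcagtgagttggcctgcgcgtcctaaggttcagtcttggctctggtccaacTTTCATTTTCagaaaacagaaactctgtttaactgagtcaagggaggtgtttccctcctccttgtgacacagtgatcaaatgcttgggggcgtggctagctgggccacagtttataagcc
Irgm1: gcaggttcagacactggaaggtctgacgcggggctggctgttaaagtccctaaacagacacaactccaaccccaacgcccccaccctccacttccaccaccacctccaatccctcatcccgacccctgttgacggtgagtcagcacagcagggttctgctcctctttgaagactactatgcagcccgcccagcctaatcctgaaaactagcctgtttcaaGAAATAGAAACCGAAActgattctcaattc
Gbp7: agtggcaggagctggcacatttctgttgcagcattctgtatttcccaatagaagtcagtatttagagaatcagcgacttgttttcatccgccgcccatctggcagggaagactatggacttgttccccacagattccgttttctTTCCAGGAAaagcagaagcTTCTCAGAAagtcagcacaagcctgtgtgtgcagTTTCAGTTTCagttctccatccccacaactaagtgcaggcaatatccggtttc
Irf1: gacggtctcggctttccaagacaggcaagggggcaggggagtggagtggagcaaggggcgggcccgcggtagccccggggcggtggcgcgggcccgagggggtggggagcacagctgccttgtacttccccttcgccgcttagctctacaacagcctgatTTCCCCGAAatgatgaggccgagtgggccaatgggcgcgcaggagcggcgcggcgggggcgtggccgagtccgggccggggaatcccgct
In Isg15 the 3 ISRE matches overlap in 1 run, and in Irgm1 2 do. The last ISRE match ended 57 bases before the start in Isg15, 76 in Ifit1, 111 in Rsad2, 15 in Irgm1 and 44 in Gbp7, and the GAS match of Irf1 ended 82 bases before it. These matches describe the letters and were not tested for binding.

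The members did not share 1 pattern over the cell classes. Levels are means over tumors of UMIs summed per class and tumor, in CPM with the SD between tumors, and fold changes are from 1 edgeR fit of all classes, blocked by mouse, with p-values adjusted over every gene tested. Drop-seq counts the 3′ end of each molecule once, so levels of different genes were not scaled by length. Of the 40 members, 14 had their highest mean level in endothelial cells, 8 in C1q macrophages, 7 in other myeloid cells, 4 in fibroblasts, 2 each in hormone-sensing, myoepithelial and T/NK cells and 1 in tumor cells. Of the 30 members tested below, 12 were highest in endothelial cells, beside 17.3% of all genes tested, and 5 in C1q macrophages, beside 7.78%. The endothelial means come from only 3 sums of 30528 to 34654 UMIs. In the joint fit of all classes, 30 members passed the filter on low counts among 5565 genes, and 28 of them differed from tumor cells in at least 1 of 7 classes, as did 88.9% of all genes tested. Of the 30, 13 were higher in 1 class and lower in another, as were 25.4% of all genes tested. Dhx58, Ifit2, Ifit3b, Oas2, Oas3, Mx1, Mx2, Cmpk2, Herc6 and Ifi44 did not pass, with 73 to 757 UMIs each in the 8 classes. A lower level in a class can come from fewer cells with the transcript or from less of it per cell, which cannot be told apart in sums.

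**Figure D1:**
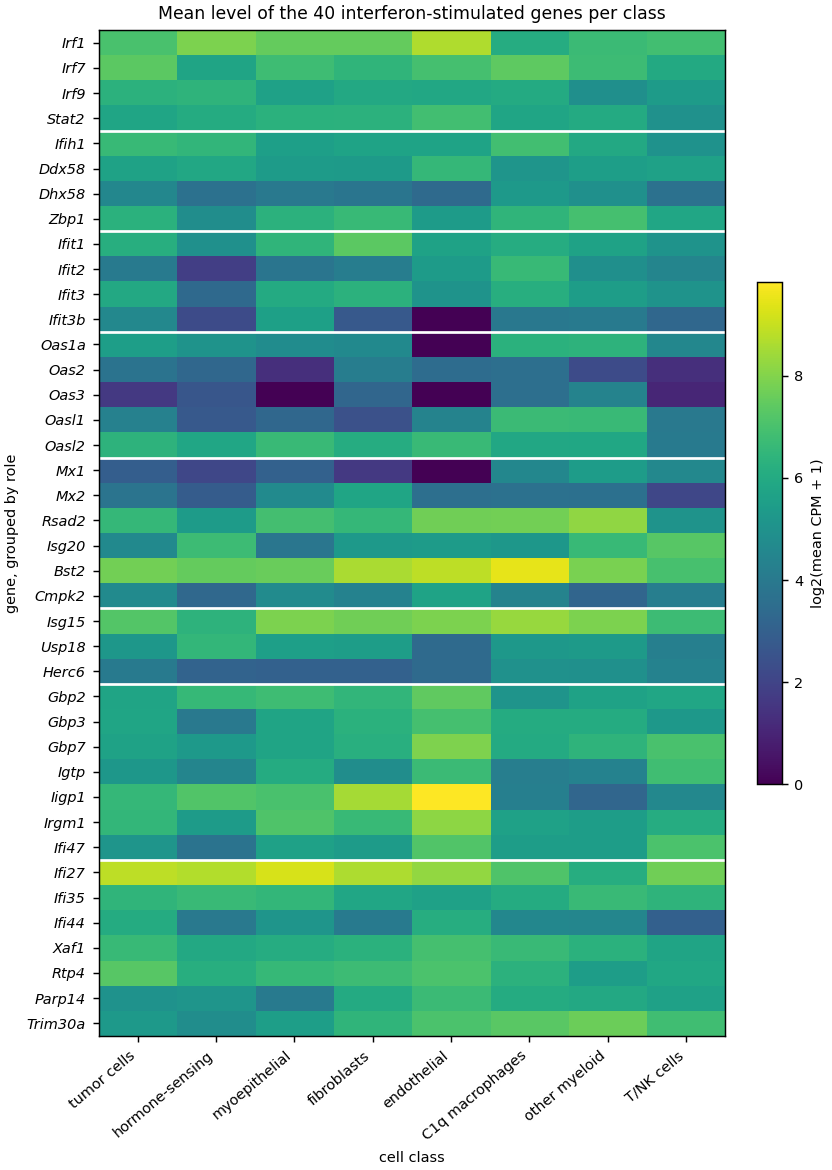
Mean level of each of the 40 members (rows, grouped by role with white lines between groups) in 8 cell classes (columns), as log2(mean CPM + 1) over the tumors. Iigp1 in endothelial cells (915 CPM), Bst2 in C1q macrophages (714 CPM) and Ifi27 in myoepithelial cells (598 CPM) are the brightest fields, and Ifit3b, Oas1a, Oas3 and Mx1 are at 0 in endothelial cells.

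Among the transcription factors, Irf1, which is induced most strongly by interferon gamma, was highest in endothelial cells. Its level there was 635, 524 and 61.0 CPM in tumors 4, 5 and 8, and in tumor cells it was lowest in tumor 3 (40.7 CPM), had a median of 102 CPM and was highest in tumor 7 (271 CPM). Tumors 4 and 5 thus lay above all tumor cell sums and tumor 8 within their range, and without tumor 4 the call was lost (adjusted p = 0.264). The log2 fold change against tumor cells was 1.62 ± 0.46 (SE, adjusted p = 0.00667) in endothelial cells, 0.89 ± 0.26 in hormone-sensing cells (adjusted p = 0.00522) and 0.73 ± 0.29 in fibroblasts (adjusted p = 0.0298). The call in hormone-sensing cells was lost without tumor 3 and that in fibroblasts without any 1 of tumors 1, 3, 4, 5 and 8. Irf7, the factor that amplifies type I interferon production, went the other way. It was lower than in tumor cells (165 ± 90.0 CPM, SD, n = 7) in hormone-sensing cells (52.7 ± 17.4 CPM), by 1.87 ± 0.23 on the log2 scale (SE, adjusted p = 1.09e-09), and was also lower in T/NK cells and, though not without tumor 4, in fibroblasts. Stat2 was called higher in fibroblasts (79.0 CPM, against 54.5 CPM in tumor cells), a call lost without tumor 4 or tumor 8. Irf9, the DNA-binding partner of STAT2, was called lower in other myeloid cells (28.9 CPM, against 79.9 CPM), a call lost without tumor 7.

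Among the sensors, Ifih1, which encodes MDA5, a receptor for viral RNA, was lower than in tumor cells (97.0 CPM) in T/NK cells (31.1 CPM), fibroblasts (51.8 CPM) and myoepithelial cells (46.5 CPM), where the call was lost without any 1 of tumors 4, 5, 7 and 8. Zbp1, a sensor of Z-form nucleic acids, was lower in hormone-sensing cells (27.1 CPM against 77.0 in tumor cells) and higher in other myeloid cells (123 CPM, log2 fold change 0.70 ± 0.27, SE, adjusted p = 0.0255), though not without tumor 1, 3, 4 or 5. Ddx58, which encodes RIG-I, was called in no class.

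Among the IFIT genes, whose products bind foreign RNA, Ifit3 had the largest reduction of any tested member in hormone-sensing cells. It had at most 22.6 CPM there, with a median of 7.04 and no UMI in tumors 3, 5 and 8, against 11.6 CPM (tumor 3), 50.4 CPM (median) and 156 CPM (tumor 7) in tumor cells. The 2 classes overlapped only through the low tumor 3, and the log2 fold change was -2.28 ± 0.39 (SE, adjusted p = 2.43e-06). Ifit1 was likewise lower in hormone-sensing cells (29.5 CPM) than in tumor cells (71.9 CPM), and higher in fibroblasts, where it ranged from 75.5 to 211 CPM with a median of 180 CPM (log2 fold change 1.28 ± 0.31, SE, adjusted p = 0.000316). Ifit3 and its neighbor Ifit3b are 98.0% identical over 1697 aligned bases of their longest transcripts and 57.9% over their last 400 bases, so the division of reads between them is uncertain.

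In the OAS family, which makes the activator of RNase L and related proteins, Oasl1 was higher in both myeloid classes than in tumor cells. It had 25.1 CPM (tumor 1), 91.0 CPM (median) and 278 CPM (tumor 2) in C1q macrophages and 101 ± 53.4 CPM (SD, n = 7) in other myeloid cells, against 19.3 ± 9.41 CPM in tumor cells. The log2 fold changes were 2.45 ± 0.31 (SE, adjusted p = 4.45e-10) and 2.08 ± 0.40 (SE, adjusted p = 9.88e-06). Oas1a was higher in C1q macrophages (76.5 CPM) than in tumor cells (45.0 CPM). It had no UMI in any of the 3 endothelial sums, and with 97956 UMIs in them the limit of 3 UMIs is 30.6 CPM. That limit lies within the range of Oas1a over the 7 tumor cell sums (19.4 to 94.6 CPM). The endothelial sums come from tumors 4, 5 and 8 only, so no bound on the fold is given. The endothelial call was lost without tumor 5 or tumor 8. Without tumor 4 or tumor 7 Oas1a did not pass the filter on low counts and was not tested in any class. Oasl2 was lower in T/NK cells, with 15.8 CPM against 81.3 CPM in tumor cells.

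Among the Mx and other antiviral effectors, Bst2, which encodes the virion-tethering protein tetherin, had the highest mean level of any member in C1q macrophages. Its level in C1q macrophages was lowest in tumor 1 (401 CPM), had a median of 741 CPM and was highest in tumor 2 (1138 CPM), above the whole range in tumor cells (135 to 383 CPM). The log2 fold change was 1.99 ± 0.21 (SE, adjusted p = 7.91e-13), and Bst2 was called lower in T/NK cells (124 CPM), though not without tumor 2 or tumor 4. It was also called higher in fibroblasts (383 CPM, log2 fold change 0.95), but without cells that carried markers of 2 classes the log2 fold change was 0.34 (adjusted p = 0.300). Rsad2, the gene of viperin, was higher in C1q macrophages (213 ± 149 CPM, SD, n = 7) and other myeloid cells (294 ± 236 CPM) than in tumor cells (92.8 ± 44.7 CPM), with log2 fold changes of 1.25 ± 0.35 and 1.33 ± 0.41 (SE, adjusted p = 0.00209 and 0.00547). Isg20, an RNA exonuclease, was called higher than in tumor cells in 5 classes, though the call was lost in C1q macrophages without tumor 4 (adjusted p = 0.253) or tumor 8 and in fibroblasts without any 1 of tumors 5, 7 and 8. It was highest in T/NK cells (154 ± 103 CPM, log2 fold change 2.88 ± 0.27, SE, adjusted p = 1.4e-14) and in hormone-sensing cells (106 ± 33.7 CPM, log2 fold change 1.98 ± 0.27, SE, adjusted p = 9.31e-09), and 24.7 ± 8.60 CPM in tumor cells. In barcodes with fewer than 200 genes, which hold free RNA and small cells, Isg20 stood at 46.7 to 564 CPM, and in tumors 7 and 8 (564 and 349 CPM) it was above its level in T/NK cells there (297 and 88.8 CPM). The part of free RNA in these calls was not tested. In fibroblasts the Isg20 log2 fold change was -0.08 without cells that carried markers of 2 classes, against 0.99 with them.

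In the ISG15 system, Isg15, the ubiquitin-like protein itself, was higher in C1q macrophages (log2 fold change 0.91 ± 0.27, SE, adjusted p = 0.00364, but 0.43 with adjusted p = 0.194 without tumor 2) and lower in hormone-sensing cells (-0.85 ± 0.30, adjusted p = 0.0213), where the call was lost without tumor 2 or tumor 4. Usp18, the protease that removes ISG15, was higher in hormone-sensing cells, where it had 38.9 CPM in tumor 3, a median of 94.5 CPM and 119 CPM in tumor 8, than in tumor cells (36.1 ± 28.0 CPM, SD, n = 7). The log2 fold change was 1.12 ± 0.26 (SE, adjusted p = 0.000419). In that class 2 members of the same system thus went in opposite directions.

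The GTPases act on the membranes around intracellular pathogens, and they did not move together between classes. Iigp1 had 548, 1343 and 854 CPM in the endothelial cells of tumors 4, 5 and 8, and 187 to 668 CPM in fibroblasts with a median of 235 CPM. In tumor cells it had 52.3 to 122 CPM, and in C1q macrophages 8.59 to 34.8 CPM. Fibroblasts overlapped with endothelial cells but lay above all tumor cell sums, and C1q macrophages lay below them. The log2 fold change against tumor cells was 2.71 ± 0.36 in endothelial cells (SE, adjusted p = 8.97e-09), 1.97 ± 0.25 in fibroblasts (adjusted p = 6.58e-10), -1.85 ± 0.36 in C1q macrophages (adjusted p = 1.34e-05), -1.74 ± 0.37 in T/NK cells (adjusted p = 5.29e-05) and -3.21 ± 0.61 in other myeloid cells (adjusted p = 1.09e-05). A UMI of Iigp1 was found in 29.0% of endothelial cells and in 1.68% of C1q macrophages, at median depths of 522 and 549 UMIs per cell, and its level in barcodes with fewer than 200 genes was 22.0 to 142 CPM. Gbp7 was also highest in endothelial cells (289, 196 and 244 CPM in tumors 4, 5 and 8, against 49.3 ± 16.8 CPM in tumor cells), with a log2 fold change of 2.10 ± 0.46 (SE, adjusted p = 0.000312), and was higher in T/NK cells too (1.48 ± 0.23). Irgm1 was higher in endothelial cells, 144, 557 and 153 CPM in tumors 4, 5 and 8, but not without tumor 5 (adjusted p = 0.635) or tumor 8. It was lower in C1q macrophages, other myeloid and hormone-sensing cells, and it was called lower in T/NK cells, where the call was lost without any 1 of tumors 1, 2, 3, 5 and 7 (adjusted p = 0.0547 to 0.150). Ifi47 was higher in T/NK cells (131 CPM) than in tumor cells (33.6 CPM), with no overlap between the classes, and lower in hormone-sensing cells (12.4 CPM). Igtp was also higher in T/NK cells (111 CPM, against 36.5 CPM). Exons of Igtp and Irgm2 overlap on the same strand, as do those of Ifi47 and Olfr56, so reads there could belong to either gene.

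Among the remaining members, Ifi27, a mitochondrial protein gene, had its highest means in the epithelial classes. Fibroblasts were close to them (399 CPM, from 253 to 609 CPM) and were not called for Ifi27. It had 468 ± 88.1 CPM in tumor cells (SD, n = 7), 416 CPM in hormone-sensing and 598 CPM in myoepithelial cells, and was lower in C1q macrophages (140 CPM, log2 fold change -1.47 ± 0.18, SE, adjusted p = 1.6e-10) and other myeloid cells (68.1 CPM, -2.80 ± 0.25, adjusted p = 1.93e-15). Rtp4 was the only member with its highest mean in tumor cells (154 CPM) and was lower in hormone-sensing, C1q macrophage, other myeloid and T/NK cells. Trim30a, an inhibitor of NF-kappa-B signalling, was higher in C1q macrophages (161 CPM, log2 fold change 2.26 ± 0.22, SE, adjusted p = 3.52e-14), other myeloid (198 CPM), T/NK (114 CPM), endothelial (131 CPM) and fibroblast (85.3 CPM) sums than in tumor cells (37.5 CPM). The endothelial call was lost without any 1 of tumors 1, 3, 4, 5 and 8, and the log2 fold change in fibroblasts was 0.67 (adjusted p = 0.209) without cells that carried markers of 2 classes, against 1.32 with them. Parp14 was higher in C1q macrophages and was called higher in fibroblasts, a call lost without tumor 3 (adjusted p = 0.131), tumor 5 or tumor 8, and Ifi35 was called in no class.

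**Figure D2:**
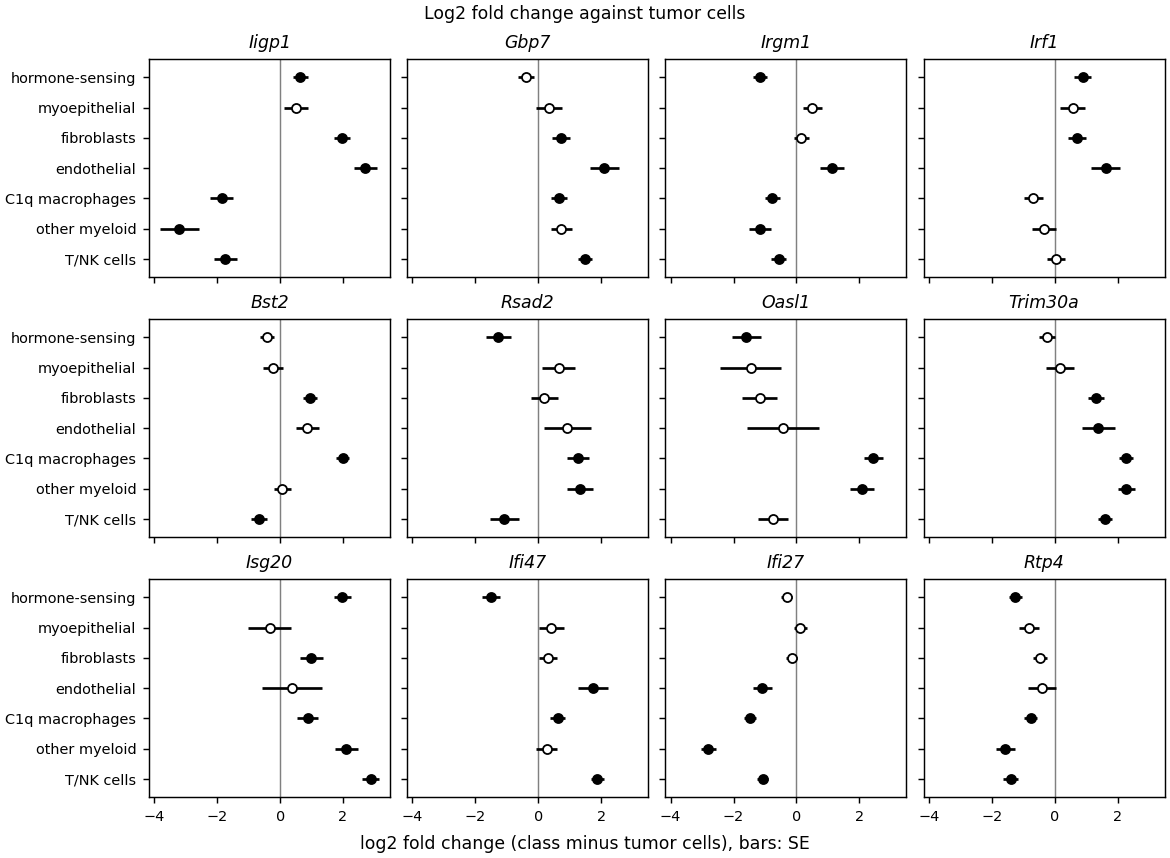
Log2 fold change against tumor cells (x axis) of 12 members in 7 classes (y axis), with bars of 1 SE from the joint edgeR fit over 7 tumors (5 for myoepithelial and 3 for endothelial cells). Filled points passed an adjusted p of 0.05 and open points did not. Iigp1 runs from -3.21 in other myeloid cells to 2.71 in endothelial cells, while Ifi27 lies below 0 in the immune and endothelial classes.

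Counts per class from the main fit were read beside those of all genes. For counts under other settings or without a tumor, shares of all genes are not given here. Those counts do not set the members apart from other genes. Of the 85 calls of members over the 7 classes, 46 passed without each tumor left out in turn, 11 of 18 in hormone-sensing cells, 0 of 1 in myoepithelial cells, 5 of 12 in fibroblasts, 2 of 8 in endothelial cells (Gbp7 and Iigp1), 9 of 17 in C1q macrophages, 8 of 11 in other myeloid cells and 11 of 18 in T/NK cells. In fibroblasts 10 of 30 members were higher and 2 lower than in tumor cells, beside 24.9% and 24.6% of all genes tested, and the median log2 fold change was 0.26 for the members and -0.10 for all genes. In endothelial cells 6 were higher and 2 lower, beside 10.2% and 11.9% of all genes, with medians of 0.44 and -0.36. In C1q macrophages 11 were higher and 6 lower, beside 25.4% and 26.5%, with medians of 0.22 and -0.10. The split depended on scaling, which moves the fold changes of all genes. It was 14 and 0 in fibroblasts, 8 and 0 in endothelial cells and 12 and 4 in C1q macrophages with median-of-ratios scaling, and 6 and 6, 8 and 1, and 7 and 8 without scaling. The count in C1q macrophages was 9 in place of 17 without the mouse as block and 10 without tumor 4, and the count in endothelial cells was 4, 3 and 5 without tumors 4, 5 and 8.

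In hormone-sensing cells 4 members were higher and 14 lower, beside 13% and 17.2% of all genes, with a median of -0.53 for the members and -0.08 for all genes. In T/NK cells 5 were higher and 13 lower, beside 25% and 29.1%, with medians of -0.62 and -0.09. Other myeloid cells had 5 higher and 6 lower, beside 20.5% and 25.6%, and medians of -0.17 and -0.20. In myoepithelial cells only Ifih1 was called, lower, beside 13.1% of genes higher and 13% lower. With median-of-ratios scaling 4 members were called there, all higher. The counts in hormone-sensing and T/NK cells were each 11 in place of 18 without the mouse as block, and that in T/NK cells was also 11 without tumor 2.

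The tumors differed in the summed level of the members, and the order of the tumors was not the same in every class. In tumor cells the sum was 2594, 3173, 1819, 3354, 2791, 4864 and 1936 CPM in tumors 1, 2, 3, 4, 5, 7 and 8. Tumor 7 stood highest, and its exact Poisson interval of 4766 to 4964 CPM (95%, counting error only) lay apart from the nearest, 3263 to 3446 CPM in tumor 4. Tumor 3 stood lowest, but 421 of its 802 tumor cells lay in a single cluster, in which it had 1105 CPM without Isg15. In each of the other 5 tumor cell clusters at least 1 tumor had a lower level than tumor 3. In T/NK cells the sum was 2299, 1596, 1216, 2595, 1983, 3702 and 1776 CPM in the same order of tumors, again with tumor 7 highest. Without Isg15, tumor 7 was highest in 2 of the 3 T/NK clusters, while in the other tumor 4 had 2897 CPM and tumor 7 had 2505 CPM. The tumors also filled these clusters unequally, with 374 of the 508 T/NK cells of tumor 7 in one cluster and 387 of the 574 of tumor 2 in another. In fibroblasts the range was only 2841 to 3738 CPM, with tumor 3 highest. Over the 6 classes with all 7 tumors, Kendall's coefficient of concordance for the order of tumors, which is 1 for equal orders and averages 0.167 over 6 unrelated ones, was 0.266, and 0.310 without Isg15. The classes of a tumor share 1 library and its free RNA, and the part of these in the value was not tested.

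**Figure D3:**
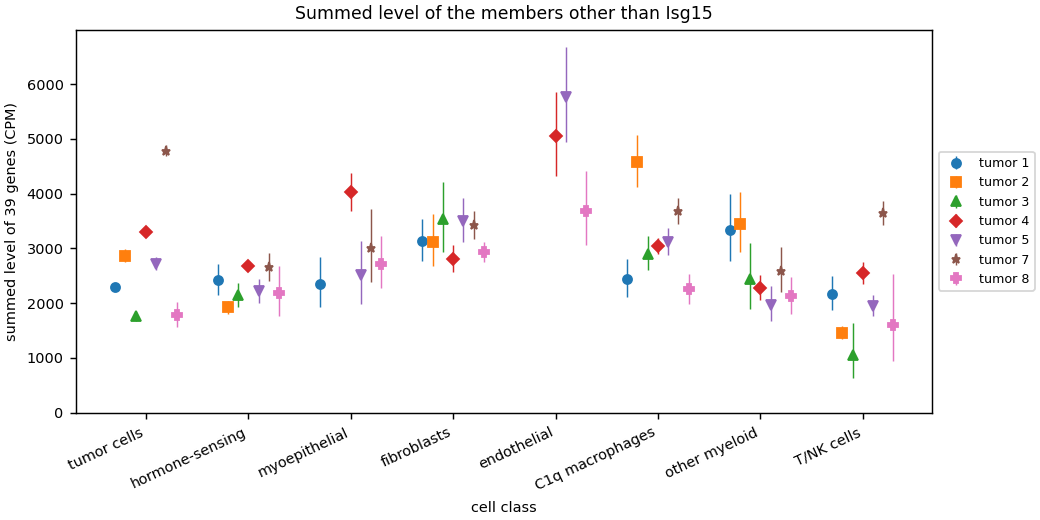
Summed level of the 39 members other than Isg15 (y axis, CPM) in each cell class (x axis), 1 point per tumor with its exact 95% Poisson interval for counting error. Tumor 7 is highest in tumor cells (4786 CPM) and T/NK cells (3643 CPM), and tumor 2 in C1q macrophages (4577 CPM).

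In tumor cells, 33 of the 40 members had their highest level in tumor 7, including 23 of the 30 tested and all 10 that did not pass the filter. Among all 5565 genes tested, 14.9% were highest in tumor 7. Such shares cover tested genes only, so they stand beside counts of the 30 tested members. Counts over all 40 members, here and below, have no matching share. The median of the tested members in tumor 7, as log2(CPM + 10) centered on the mean of the 7 tumors, was 0.86, and that of all genes was -0.03. Usp18 had 97.2 CPM in tumor 7 and 14.2 to 35.7 CPM in the other 6, Ifit3 had 156 CPM and 11.6 to 70.5 CPM, and Oas2 had 37.1 CPM and 0 to 14.7 CPM. Of the further interferon-stimulated genes outside the list, 14 of 28 were highest in tumor 7. In T/NK cells of the 5 tumors with at least 50000 UMIs in that class, 26 of 40 members were highest in tumor 7. Of the 30 tested members 19 were, beside 24.1% of all genes tested. By the same limit, 11 were so among 6 tumors in hormone-sensing cells (all genes 19.7%) and 10 among 6 in fibroblasts (15.8%). In other myeloid cells 11 were, among 4 tumors (26.1%). The centered member median was also highest in tumor 7. It was 0.64 in T/NK, 0.22 in hormone-sensing, 0.30 in fibroblast, 0.28 in other myeloid and 0.36 in C1q macrophage sums. The limit left out tumors with the highest sums, tumor 3 in fibroblasts and tumors 1 and 2 in other myeloid cells.

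The tumor cells fell into 6 clusters, and the 39 members other than Isg15 were summed highest in tumor 7 in 5 of them. In the other, tumor 2 had 3349 CPM and tumor 7 had 3251 CPM. Tumor cells of tumor 7 were also deeper, with a median of 1026 UMIs per cell against 589 to 701 in the others. With each cell thinned to 300 UMIs, 68.7% of its tumor cells had a member UMI, beside 38.8 to 55.1% in the other tumors (90.7% and 62.8 to 75.1% unthinned, and 633 of 6077 tumor cells under 300 UMIs left out). In barcodes with fewer than 200 genes the summed level of the members was 3629 CPM in tumor 7 and 2051 to 3123 CPM in the others. In the tumor cells of tumor 7 the 12 T/NK markers summed to 20.4 CPM, within the 7.75 to 41.4 CPM of the others, with 3 markers at 0, and the 8 macrophage markers to 135 CPM, within 43.6 to 364 CPM. The 6 neutrophil markers were highest there, at 636 CPM against 172 to 505 CPM in the other tumors, with 1 marker at 0, and their part in the level of the members was not tested.

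In C1q macrophages the sum was highest in tumor 2. It was 2771, 5934, 3110, 3087, 3193, 3741 and 2423 CPM in tumors 1, 2, 3, 4, 5, 7 and 8. In tumor 2 it rested on 490 member UMIs in 92 cells, and without the 5 cells with the most member UMIs it was still 5039 CPM. Isg15 alone gave 1356 CPM (112 UMIs in 36 of the 92 cells), against 41.7 to 326 CPM in the macrophages of the other tumors, and without Isg15 tumor 2 remained highest at 4577 CPM, beside 3681 CPM in tumor 7. Without both Isg15 and those 5 cells it had 3779 CPM, close to tumor 7 (3681 CPM). Cells were left out of tumor 2 only, and all cells of tumor 7 were kept. The order of the tumors differed between the 2 clusters of the class. Without Isg15 the larger had 4683 CPM in tumor 2 and 3689 CPM in the next, tumor 7, whereas in the smaller tumor 3 (5925 CPM) and tumor 5 (4558 CPM) lay above tumor 2 (4317 CPM). Rsad2 had 521 CPM in tumor 2 and 112 to 281 CPM elsewhere, Oasl1 278 CPM and 25.1 to 103 CPM, Ifit2 303 CPM and 34.4 to 87.2 CPM, and Ifit1 218 CPM and 23.7 to 102 CPM. These genes were among the members that were highest in tumor 2. Most members were not, and Ifi27 was lowest in tumor 2 (48.4 CPM against 128 to 184 CPM). In all, 15 of the 40 members were highest in tumor 2 and 14 in tumor 7. Of the 30 tested members 9 and 13 were, and of all genes tested 14.0% and 13.1%.

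Among the ligands, only Ifnb1, Ifng and Ifne had UMIs in cells. Ifnb1 had 52 UMIs in 31 of 15047 cells, 40 of them in C1q macrophages, 7 in 5 tumor cells that were all of tumor 7, 3 in other myeloid and 2 in T/NK cells. In C1q macrophages tumor 2 had 30 UMIs in 15 of 92 cells (363 CPM), tumor 7 had 7, tumor 5 had 2, tumor 8 had 1 and tumors 1, 3 and 4 had none. Barcodes with fewer than 200 genes held 11 Ifnb1 UMIs in tumor 2 and 1 in tumor 8. They held 3, 6, 2, 2, 5, 6 and 1 Ifng UMIs in tumors 1, 2, 3, 4, 5, 7 and 8. Cxcl10 and Tnf were also highest in the C1q macrophages of tumor 2 (1344 and 1296 CPM, against at most 436 and 368 CPM in other tumors). Ifng had 70 UMIs, of which 69 were in T/NK cells. Tumor 7 had 29 of them (100 CPM), tumors 1, 2, 4 and 5 had 5, 12, 11 and 9 (32.4 to 57.5 CPM), tumor 3 had 3 in 39 cells, which at its low depth is the highest level (166 CPM), and tumor 8 had none. T/NK cells were 6.79, 28.9, 3.12, 11.3, 24.8, 23.2 and 2.29% of the cells of tumors 1, 2, 3, 4, 5, 7 and 8. Whether this share bears on the level of the members in tumor cells was not tested. Ifne had 2 UMIs.

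In tumor cells Isg15 ordered the tumors in another way than the sum of the other members. Tumors 1 and 2 in other myeloid cells and tumor 2 in C1q macrophages were highest in both. In tumor cells Isg15 had 303, 311, 60.1, 62.7, 66.5, 78.4 and 157 CPM in tumors 1, 2, 3, 4, 5, 7 and 8, so that tumors 1, 2 and 8 were high and tumor 7 was not. In fibroblasts it had 448, 271, 203, 37.7, 117, 43.3 and 340 CPM and in other myeloid cells 628, 458, 71.9, 75.6, 88.6, 0 and 358 CPM, and in these 3 classes tumors 1, 2 and 8 lay above the other 4 without overlap. They did not in hormone-sensing cells, where the lowest of them was at 0 and the highest of the other 4 at 59.1 CPM, in C1q macrophages (172 and 204 CPM) or in T/NK cells (126 and 166 CPM), beside 3.79%, 5.10% and 2.89% of all genes that did. In tumor cells no other of the 30 tested members did so, while 5.66% of all genes tested did and 3.50% lay below. In fibroblasts Bst2 did so too, and in other myeloid cells Bst2 and Usp18, beside 4.15% and 3.59% of all genes. Barcodes with fewer than 200 genes had 373, 181, 117, 62.1, 91.3, 52.3 and 165 CPM of Isg15 in the same order. The grouping of tumors 1, 2 and 8 was taken from the Isg15 levels themselves. Its separation by Isg15 is therefore no test, and the shares of all genes are no chance level for Isg15. Tumors 1 and 2 belong to the CB series and tumor 8 to the WT series.

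**Figure D4:**
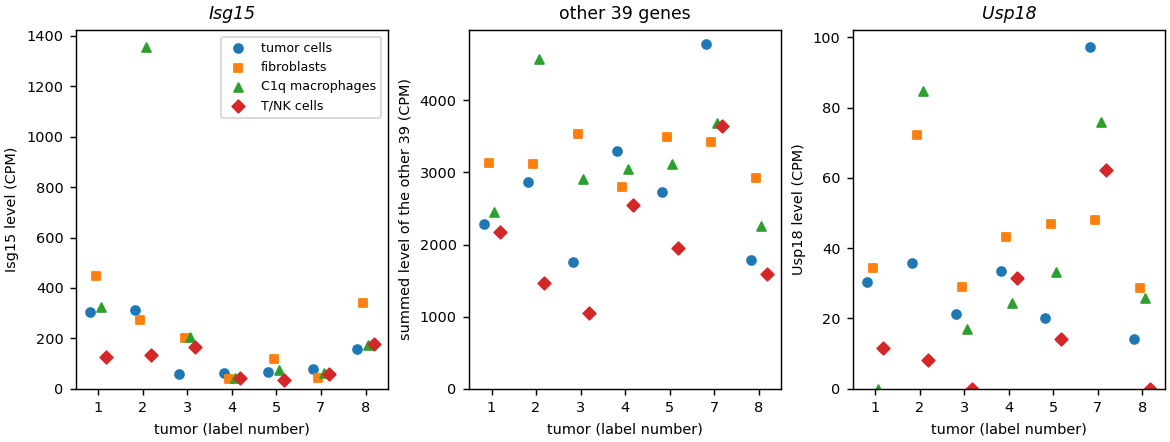
Level of Isg15 (left), summed level of the other 39 members (middle) and level of Usp18 (right), in CPM, by tumor (x axis, label numbers) in 4 cell classes, 1 point per class and tumor. In tumor cells Isg15 is highest in tumors 1 and 2 (303 and 311 CPM), while the other 39 genes and Usp18 are highest in tumor 7 (4786 and 97.2 CPM).

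Between the 2 title series no member was called by edgeR, in tumor cells (0 of 38 tested, beside 0% of 9268 genes) or in C1q macrophages (0 of 13, beside 0% of 2023 genes). At an unadjusted p under 0.05 there were 5 members and 458 genes in tumor cells and 1 member and 86 genes in C1q macrophages, and DESeq2 called 0 members in both. Of all genes DESeq2 called 4 higher and 3 lower in the WT series in tumor cells and 0 in C1q macrophages. The smallest p among members in tumor cells was that of Oasl1 (adjusted p = 0.968, edgeR). What separates the series is not given in the sources used here.

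The spread of the members between tumors was larger than that of most genes in tumor cells. The squared coefficient of variation beyond counting error had a median of 0.197 over the 30 tested members and 0.0497 over all genes in tumor cells, and 28 of the 30 lay above that median. In C1q macrophages the medians were 0.0765 and 0.0449 and in fibroblasts 0.0492 and 0.0430. In T/NK cells they were 0.0850 and -0.0138, where a negative value means less spread than counting error gives. Oas2, Ifit2, Ifit3, Isg15 and Usp18 varied most in tumor cells among members with at least 10 CPM. Ifit3 ranged 13.4-fold, from 11.6 to 156 CPM, and Isg15 5.17-fold.

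The receptors were measured beside the members. Ifngr1 was highest in T/NK cells, with 425 to 1106 CPM and a median of 621 CPM, against 40.7 CPM in tumor cells (log2 fold change 3.93 ± 0.21, SE, adjusted p = 3.02e-25), and was also higher in fibroblasts, C1q macrophages and other myeloid cells. Ifnar1 and Ifnar2 were both higher in C1q macrophages (110 and 186 CPM), endothelial cells (135 and 291 CPM), other myeloid cells (62.1 and 160 CPM) and fibroblasts (48.9 and 110 CPM) than in tumor cells (29.5 and 80.4 CPM). Ifnar1 was also higher in T/NK cells (98.3 CPM), whereas Ifnar2 was lower in hormone-sensing (41.9 CPM) and T/NK cells (62.3 CPM). Ifngr2 was higher in fibroblasts, endothelial cells and C1q macrophages, and Il10rb, shared by interleukin 10 and interferon lambda receptors, in C1q macrophages (175 CPM) and other myeloid cells. Ifnlr1 had 54 UMIs in all cells, of which 27 were in tumor cells, 19 in hormone-sensing and 3 in myoepithelial cells.

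Of the 28 tested further interferon-stimulated genes outside the list, 20 were higher and 0 lower in C1q macrophages than in tumor cells, beside 25.4% and 26.5% of all genes. In fibroblasts 13 were higher and 2 lower (all genes 24.9% and 24.6%), in endothelial cells 11 and 0 (10.2% and 11.9%), in other myeloid cells 20 and 3 (20.5% and 25.6%) and in T/NK cells 15 and 7 (25% and 29.1%). In hormone-sensing cells 3 were higher and 4 lower (13% and 17.2%), and in myoepithelial cells 3 and 2 (13.1% and 13%). The counts in hormone-sensing and myoepithelial cells lay near the shares of all genes. The 5 tested receptor genes were all higher in C1q macrophages, as were 25.4% of all genes. Single cells carried few member UMIs. After thinning to 300 UMIs, 51.5% of tumor cells, 49.2% of hormone-sensing, 70.4% of endothelial, 53.7% of fibroblast, 51.3% of C1q macrophage and 41.0% of T/NK cells had at least 1, and 25.6% of endothelial cells but 6.32 to 10.6% of these other classes had at least 3. Unthinned shares with at least 1 ran from 53.4% in T/NK cells to 79.3% in hormone-sensing cells, at median depths of 419 and 869 UMIs.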

How the data were processed

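Drop-seq counts each captured 3′ end once per UMI. The files deposited by the authors hold raw UMI counts per gene and cell barcode, 1 library per mouse, not normalized. The methods describe alignment to mm10 with the PyMT sequence added, whereas the submitters' processing notes name STAR, FastQC and the builds GRCh37.p13 and hg19. The matrices hold mouse gene symbols, and the counting program and annotation are not given in the sources used here. Reads shared by near-identical or overlapping genes could therefore have been assigned to either gene, and exons of 14 members overlap another gene in GENCODE M21.

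Cells had 200 to 6000 genes. Mitochondrial genes, present in 2 matrices, were dropped. Clusters were made with Seurat 5.3.0 (20 principal components, resolution 1) without the members and pathway genes, and named from fixed marker lists. The study used 9 components and resolution 0.6. No doublet caller was run, and leaving out cells with 2 markers of another class (3462 cells) was an alternative. B or plasma cells (470) and a hemoglobin-high cluster (488) were left out. UMIs were summed per class and tumor with at least 10 cells and tested in R 4.3.3 with edgeR 4.0.16 (quasi-likelihood, TMM, filterByExpr, mouse as block, Benjamini-Hochberg over all genes, threshold 0.05, two-sided). The classes of a tumor come from the same mouse, which is what pairs them. DESeq2 1.42.0 was an alternative. p-values of the class fit set each difference from tumor cells against the variation of the sums that mouse and class did not account for. The dispersion was estimated over the sums of all 8 classes. It was not estimated for each class on its own, so it is not the spread of a single class difference between mice. The differences came from 7 tumors, but from 5 for myoepithelial and 3 for endothelial cells. Between the title series, p-values set the difference against the spread between tumors. Levels, exact Poisson intervals (95%, counting error only) and figures were made with Python 3.11.15, NumPy 2.4.6, SciPy 1.17.1 and matplotlib 3.10.9. The fitting code was tested on simulated data.

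Named genes are the 5 highest members per class, up to 3 called members per direction and class, the highest of each role, the 5 with the largest spread in tumor cells, the receptors and Ifng. A result on 1 pathway gene is not reported here. Ddx58, Ifi35, Irf9, Stat2, Parp14, Cxcl10, Tnf, Ifnb1, Ifne and Ifnlr1 were added after their values were seen. The members and lists were chosen with earlier results of these data known. Alternatives were other scalings, no filter, DESeq2, no replicate block, each tumor left out, at least 20 cells per sum, at least 500 genes per cell and other clusterings or cell classes. Leaving the library sizes unscaled and summing without Isg15 were chosen after seeing the data.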

Additional observations from a re-analysis of the deposited data

Results flagged for a closer look

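In 55 groups of 4 to 7 tumors, 9 values lay apart from the rest by Dixon's test, where chance sets apart about 1 in 20. In C1q macrophages of tumor 2 these were the summed level of the members (5934 CPM, next 3741), Isg15 (1356 CPM, next 326), Rsad2 (521 CPM, next 281) and the ligand Ifnb1 (363 CPM, next 26.5). In tumor cells of tumor 7 they were Usp18 (97.2 CPM, next 35.7), Ifit3 (156 CPM, next 70.5) and Oas2 (37.1 CPM, next 14.7). Oas2, Ifit3 and Usp18 were tested there because they were among the 5 members with the largest spread in tumor cells, and Isg15 and Ifnb1 in C1q macrophages with earlier results of these data known, so the share that chance gives does not apply to these 5. In myoepithelial cells they were Isg15 in tumor 1 (664 CPM, next 181) and Ifi27 in tumor 7 (797 CPM, next 585), the latter from 13 cells. What set these tumors apart was not tested.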

How the results depend on the processing

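Myoepithelial and endothelial sums came from 5 and 3 tumors with few cells, and T/NK sums of tumors 3 and 8 from 39 and 26 cells, which limits what could be detected there. Of the 603 refits of the 35 named fold changes, 35 lost the call and 0 reversed. These 35 were picked as the largest changes per class and direction. Smaller changes, such as those of Gbp2 and Gbp3 in C1q macrophages and Irf9 in T/NK cells, lost the call under several settings. Of all 85 calls of members, 46 passed without each tumor left out in turn. Among the other called members, Isg20 in fibroblasts reversed without cells of 2 classes (-0.08).

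The number of members called in myoepithelial cells (1) was 4 with median-of-ratios scaling, 0 without scaling, 5 without a filter, 2 with DESeq2, 0 with at least 20 cells per sum, 2 with 9 principal components, with resolution 0.6 and with classes from each cell's markers, and 3 without cells of 2 classes. Without cells of 2 classes it was 11 in hormone-sensing cells (18), 5 in fibroblasts (12) and 10 in C1q macrophages (17), where 7, 3 and 5 called members no longer passed the filter. In endothelial cells (8) it was 4 without a filter and 5 with at least 500 genes. In other myeloid cells (11) it was 18 without a filter, and that class was not found with 9 principal components or at least 500 genes. The cause of the remaining shifts was not tested, and shares of all genes under these settings are not given here. With no replicate block the count was 11 in hormone-sensing, 0 in myoepithelial, 9 in C1q macrophage and 11 in T/NK cells (18), and the other classes stayed within 1.5 times. Leaving out 1 tumor gave 0 to 4 in myoepithelial, 3 to 9 in endothelial, 10 to 18 in C1q macrophage and 11 to 22 in T/NK cells.

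The mean summed level was 1982 CPM in hormone-sensing, 2563 CPM in myoepithelial and 3016 CPM in fibroblast sums without Ifi27, and 4757 CPM in myoepithelial sums without cells of 2 classes. Between the title series, 1 member (Isg15) was called in C1q macrophages without a filter. Among all 19118 genes tested there, 9 were called higher and 4 lower in the WT series. In tumor cells 0 members were called without a filter, beside 69 genes higher and 130 lower among 27141.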
